A study of Homo sapiens with 4 samples.

Results

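BLNK, SYK, BTK, PLCG2, LYN, FGR, LAT2, LCP2 and TYROBP form a chain of tyrosine kinase signalling behind immune receptors, and their transcripts were compared between U937 cells with a PIR hairpin and U937 cells with an empty vector. All probe sets whose annotation gave one of these 9 symbols alone were taken, which gave 23 probe sets among 54675 on the array, and 9 genes among 19775 represented. The genes were chosen by symbol, with their log2 differences in this same comparison already known from the array values, so these differences are a description and carry no test. U937 is a human cell line from a histiocytic lymphoma with monocytic features. The treated cells carried the hairpin shPIR#7, which targets PIR, in the lentiviral vector pSICO-R, and the control cells carried pSICO-R without an insert. Both lines grew in the same serum-containing RPMI-1640 medium. Pirin, the product of PIR, is a nuclear protein that holds iron and binds the NF-kB partner BCL3, and the design text states that pirin protein was not seen on Western blots of the hairpin line. The series used 1 hairpin and 1 cell line.

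RNA of each line came from 3 extractions mixed into 1 pool, and each pool was hybridised to 2 HG-U133 Plus 2.0 arrays. An array pair therefore repeats the hybridisation of one pool and not the culture. Errors on signals below are SDs between these arrays (n = 2 arrays). Those on log2 differences are the square root of the summed squares of the SDs of the 2 pools. With 1 pool on each side, the difference has no replicate check, and no p-value for the knock-down is given. In pooled RNA, fewer cells that express a gene and less RNA per cell cannot be told apart.

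In B cells this chain starts at the antigen receptor, and in monocytes and macrophages at Fc receptors and other receptors that pair with small subunits such as TYROBP (DAP12). Kinases of the SRC family, among them LYN and FGR, phosphorylate paired tyrosines called ITAMs in those subunits. SYK then docks there and phosphorylates adaptors (BLNK, LCP2, LAT2). Of these, BLNK and LCP2 bring kinases such as BTK to PLCG2, the phospholipase that makes the messengers for calcium release and protein kinase C. BLNK (SLP-65) is best known as the adaptor of B cells, and LCP2 (SLP-76) as its relative in T cells and myeloid cells.

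BLNK rose in the hairpin pool, and no other of the 9 genes changed by the size rule. That rule asked for at least a 2-fold difference between the pools, array-by-array differences of at least 0.5 on the log2 scale in all 4 pairings, and signals at or above the 60th percentile on both arrays of the higher pool. It called 251 of 10288 measured genes higher (2.44%) and 113 lower (1.1%), beside 1 of 9 members higher and 0 of 9 lower. A gene counted as measured if it reached that percentile on both arrays of either pool. The limit lay at a signal between 116.4 and 125.5 on the 4 arrays. All 9 members were measured, and the other 8 members differed by -0.11 to 0.76. Of the 9, 8 had a positive difference, with a median log2 difference of 0.20 against 0.05 over all measured genes. Positive differences made up 55.2% of measured genes. Scaling the arrays to a common median moved the median of all measured genes from 0.05 to 0.17 and that of the members to 0.32, and all 9 members and 69.0% of measured genes were then positive. The share of called genes that were higher moved from 69.0% to 81.7% with it. Quantile normalization gave 0.02 and 0.19, with 8 positive members.

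**Figure D1:**
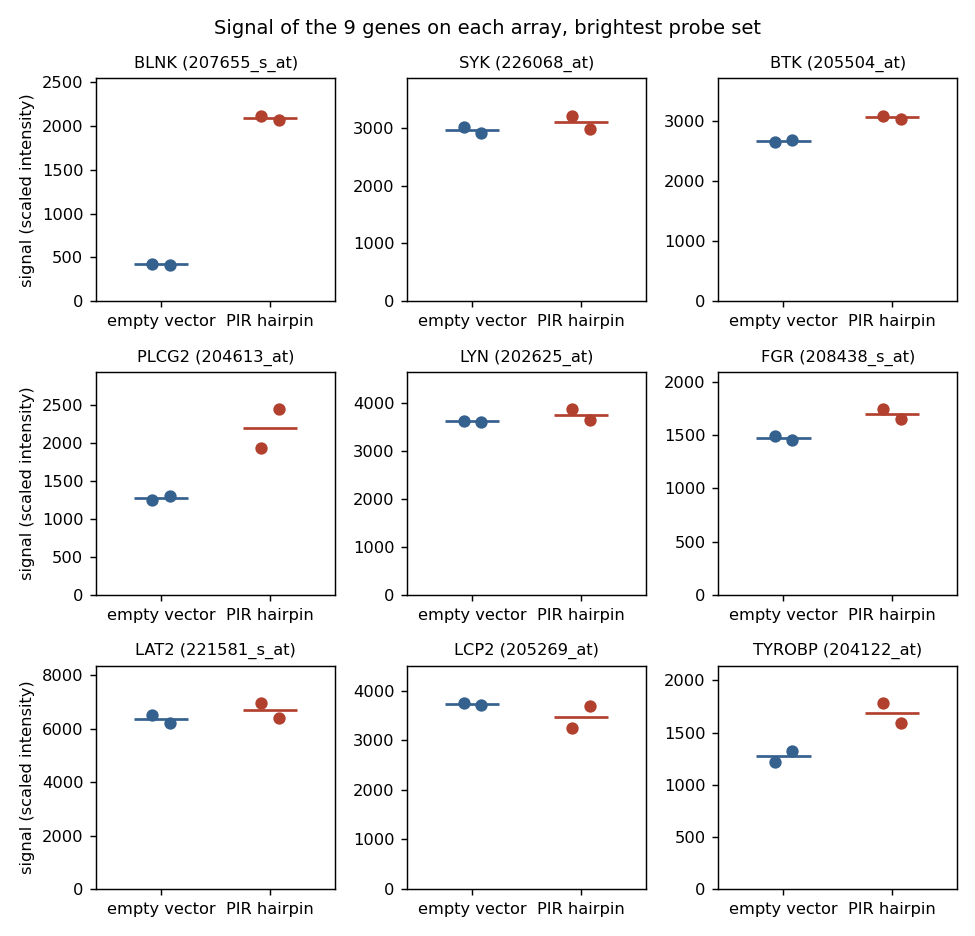
Signal (scaled intensity, linear axis from 0) of the brightest probe set of each of the 9 genes, with 1 point per array and a bar at the mean of the pool's 2 arrays. BLNK is separated widely, from 420.9 to 2093; PLCG2, BTK, FGR and TYROBP are separated by less, and the other 4 lie close together.

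The target of the hairpin was checked first. PIR had signals of 83.4 and 91.5 with the hairpin and 1812.9 and 1881.7 with the empty vector, a log2 difference of -4.15. Both hairpin signals lay below the brightness limit. With that limit in their place, PIR was at least 13.5-fold lower. The 3' to 5' signal ratio of GAPDH, a measure of RNA integrity, lay at 0.98 and 1.00 on the hairpin arrays and 0.96 and 1.02 on the others, and that of ACTB between 1.17 and 1.18 on all 4. The median SD between the arrays of a pool was 0.07 in the hairpin pool and 0.06 in the empty-vector pool on the log2 scale, over measured genes.

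TYROBP, the ITAM-bearing subunit at the start of the chain, gave signals of 1781.6 and 1593.5 with the hairpin and 1216.8 and 1326.6 with the empty vector. Both hairpin arrays were above both empty-vector arrays, and the log2 difference was 0.40 ± 0.14 (SD, n = 2 arrays a pool), or 1.32-fold, short of the size rule. This placed TYROBP at the 83.1st percentile of differences over all measured genes. Separation of this kind is common here: 40.9% of measured genes had both hairpin arrays above both empty-vector arrays, and 31.2% the reverse.

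The SRC-family kinases differed little. FGR, a kinase of granulocytes and monocytes, had signals of 1739.5 and 1651.9 against 1489.3 and 1451.1, a log2 difference of 0.20 ± 0.06 (SD, n = 2 arrays a pool). The groups did not overlap. LYN, which phosphorylates both ITAMs and inhibitory receptors, was read by 3 measured probe sets. The brightest had signals of 3861.8 and 3641.5 against 3618.4 and 3602.5, a difference of 0.05, and the other 2 gave 0.25 and 0.31. On each of the 3 the hairpin arrays were the higher ones, by 0.01 at the least, and none reached the size rule.

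SYK, the kinase that docks on phosphorylated ITAMs, was read by 4 measured probe sets that went both ways. The brightest, 226068_at, had signals of 3208.5 and 2974.9 with the hairpin and 3016.1 and 2910.3 with the empty vector, a difference of 0.06 ± 0.08 (SD, n = 2 arrays a pool). These arrays overlapped. Probe set 207540_s_at was higher on both hairpin arrays (2830.2 and 2673.4 against 2360.4 and 2346.3), by 0.22. Probe set 209269_s_at was lower on both (1010.0 and 891.9 against 1157.9 and 1253.1), by -0.34. The dimmest, 244023_at, had 135.1 and 129.1 against 244.0 and 255.8, a difference of -0.84 or 1.78-fold lower, with all 4 pairings between -0.90 and -0.78. The mean over the 4 was -0.22, so the sign for the gene turned with the choice of probe set.

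BTK, the TEC-family kinase that phosphorylates PLCG2, had signals of 3083.3 and 3029.3 against 2648.7 and 2676.6. The arrays of each pool lay close together and the pools did not overlap, yet the difference was small, 0.20 ± 0.02 (SD, n = 2 arrays a pool) or 1.15-fold, at the 67.1st percentile of measured genes.

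Among the adaptors, BLNK stood apart. Its single probe set, 207655_s_at, gave 2116.4 and 2069.7 with the hairpin and 424.5 and 417.2 with the empty vector. Every array was above the brightness limit, and the pools were far apart relative to the arrays within them. The log2 difference was 2.27 ± 0.03 (SD, n = 2 arrays a pool), or 4.81-fold, with pairings from 2.24 to 2.29. Without the pseudocount the ratio of mean signals was 4.97. BLNK had the sixth largest positive difference (rank 6) among the 251 genes called higher. Over the 8 alternative settings that could move it, its difference ran from 2.14 to 2.39.

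LCP2, the myeloid and T cell relative of BLNK, did not share that difference. Its brightest probe set, 205269_at, had signals of 3239.0 and 3699.5 with the hairpin and 3746.9 and 3703.4 with the empty vector. The hairpin arrays were lower, by -0.11 ± 0.14 (SD, n = 2 arrays a pool), with 1 of them almost level with the controls. Probe set 205270_s_at went the other way, with 3080.7 and 2800.6 against 2494.2 and 2364.5, a difference of 0.27. The other measured LCP2 probe sets gave -0.14 and -0.03, and 2 dim ones were not measured. The mean over the 4 measured LCP2 probe sets was -0.0014. The sign on the brightest LCP2 probe set turned to 0.02 under median scaling. LAT2, the membrane linker known as NTAL or LAB, had signals of 6957.4 and 6410.2 against 6504.1 and 6215.8. Its arrays overlapped, with a difference of 0.07 ± 0.10 (SD, n = 2 arrays a pool), and its second probe set was not measured.

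PLCG2, the phospholipase at the end of the chain, had the next largest difference after BLNK. Probe set 204613_at gave 1935.8 and 2436.6 with the hairpin and 1241.6 and 1301.1 with the empty vector. Both hairpin arrays were higher, but on the log2 scale they also lay farther apart than the hairpin arrays of any other member's brightest probe set. The log2 difference was 0.76 ± 0.24 (SD, n = 2 arrays a pool) or 1.70-fold, at the 95.0th percentile of measured genes. The second measured probe set, 230917_at, went the other way, with 460.0 and 521.7 against 579.9 and 585.5, a difference of -0.24. The mean of these measured probe sets was 0.26; with 2 dim, unmeasured ones included it was -0.09. With a 1.5-fold limit in the size rule, PLCG2 joined BLNK, which made 2 of 9 members higher and 0 lower, against 6.98% and 3.8% of measured genes. On the level of probe sets 2 of the 18 measured were then higher (6.69% of named probe sets) and 1, SYK 244023_at, was lower (4.63%).

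**Figure D2:**
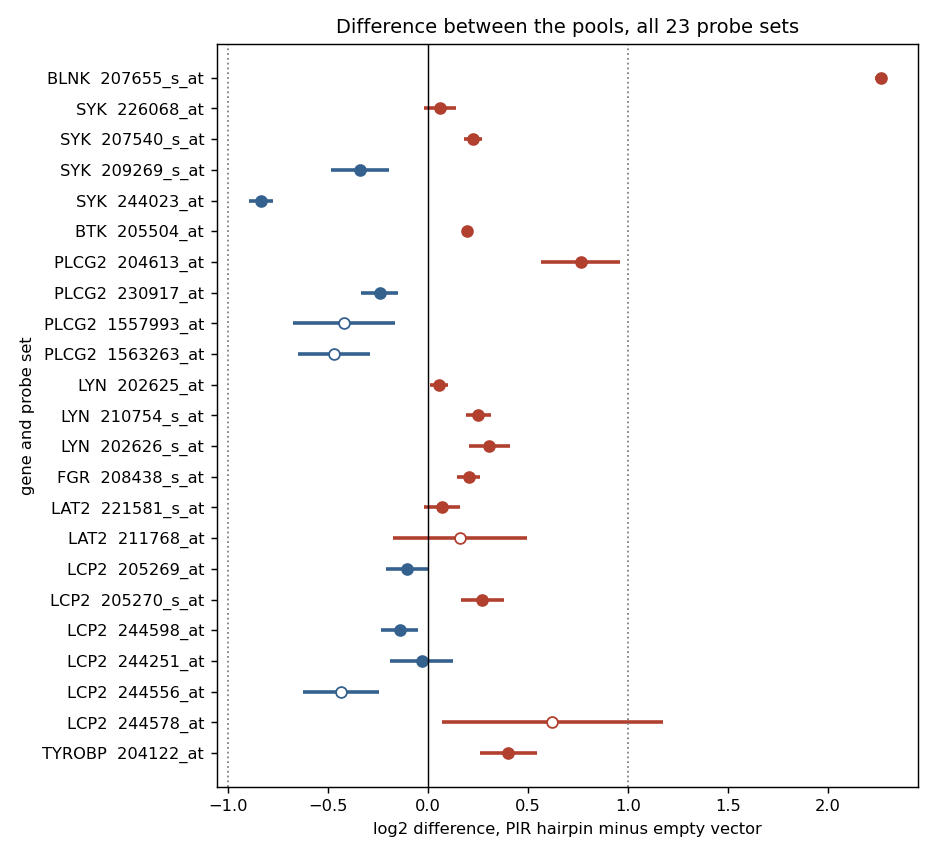
Log2 difference between the pools (hairpin minus empty vector) for all 23 probe sets, with a line over the 4 array-by-array differences; open circles mark the 5 probe sets that were not measured, and dotted lines the 2-fold limit. Only BLNK lies beyond the limit, and probe sets of SYK, PLCG2 and LCP2 lie on both sides of 0.

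Over all 18 measured member probe sets, 12 differences were positive and 6 negative, and the size rule called 1 higher (2.39% of named probe sets) and 0 lower (1.42%). Both hairpin arrays were above both empty-vector arrays on 10 of them (38.5% of 18999 measured named probe sets) and below on 5 (32.3%). Of the 4 members with at least 2 measured probe sets, SYK, PLCG2 and LCP2 each had probe sets separated in opposite directions. The same was seen in 18.8% of the 5117 genes with at least 2 measured probe sets. That share was not matched to the number of probe sets of these members, and more probe sets give more room to disagree. The signs also divided by the annotation of the probe sets. Of the measured member probe sets, 8 had a sequence identifier in the platform annotation that began with NM_, as RefSeq mRNAs do. All 8 were positive, with a median of 0.29. Of the other 10 only 4 were, with a median of -0.07. That identifier is not a list of the transcripts a probe set reads. Over all measured named probe sets the corresponding shares of positive differences were 57.4% and 51.9%. Which exons or transcript ends these probe sets read was not analysed here, and the part of that in the split was not tested.

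**Figure D3:**
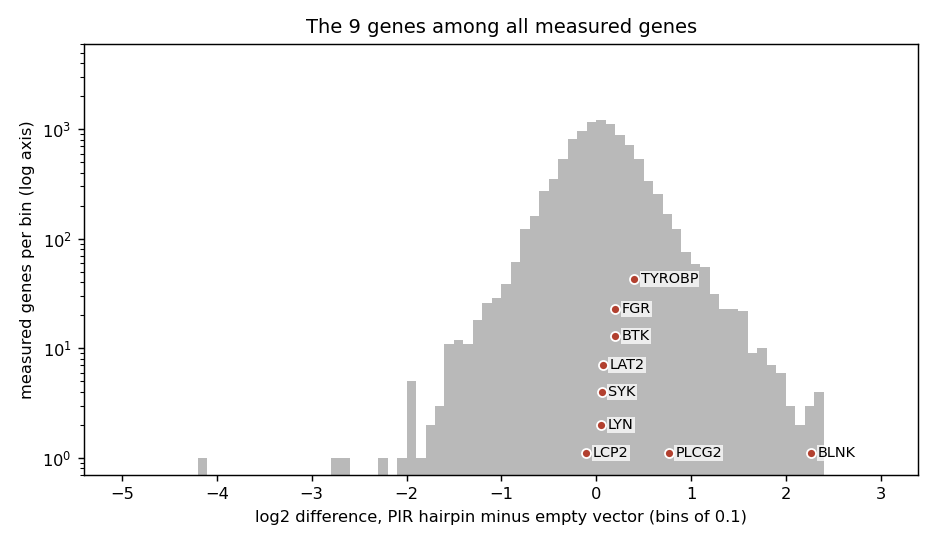
Histogram of the log2 difference between the pools (hairpin minus empty vector, bins of 0.1) over the 10288 measured genes, count on a log axis, with the 9 genes marked as points at arbitrary heights. BLNK sits at the upper end at 2.27, PLCG2 at 0.76 and TYROBP at 0.40, and the other 6 lie between -0.11 and 0.20.

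Promoter sequence was set beside these differences for the genes that RefSeq's promoter table (GRCh38.p14) held, which were 7 of the 9 (all but LYN and LAT2), with 11 windows at alternative starts. The 250 bases before the start are printed for BLNK and PLCG2, the members with the largest differences, and for TYROBP and BTK, for comparison; of the BTK windows the one with matches is shown. Capitals mark GAGGAA on either strand (TTCCTC on the opposite one) and, in BTK only, a match to the NF-kB consensus. GAGGAA is a form of the core bound by PU.1, an ETS factor of myeloid and B cells encoded by SPI1.
BLNK, chr10:96271570-96271819, minus strand: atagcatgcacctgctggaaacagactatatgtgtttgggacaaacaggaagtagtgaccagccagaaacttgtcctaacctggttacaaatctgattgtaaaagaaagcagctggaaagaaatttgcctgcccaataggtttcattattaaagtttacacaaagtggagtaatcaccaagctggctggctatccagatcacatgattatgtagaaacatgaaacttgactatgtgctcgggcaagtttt
PLCG2, chr16:81738791-81739040, plus strand: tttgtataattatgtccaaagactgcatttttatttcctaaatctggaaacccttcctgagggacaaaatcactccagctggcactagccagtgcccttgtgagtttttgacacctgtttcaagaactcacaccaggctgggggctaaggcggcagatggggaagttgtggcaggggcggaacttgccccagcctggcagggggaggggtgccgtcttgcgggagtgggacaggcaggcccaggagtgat
TYROBP, chr19:35908296-35908545, minus strand: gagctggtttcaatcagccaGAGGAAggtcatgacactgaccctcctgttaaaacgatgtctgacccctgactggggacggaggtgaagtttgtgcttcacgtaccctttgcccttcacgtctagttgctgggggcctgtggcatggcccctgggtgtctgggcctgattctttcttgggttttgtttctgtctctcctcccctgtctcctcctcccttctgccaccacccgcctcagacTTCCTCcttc
BTK, chrX:101390797-101391046, minus strand: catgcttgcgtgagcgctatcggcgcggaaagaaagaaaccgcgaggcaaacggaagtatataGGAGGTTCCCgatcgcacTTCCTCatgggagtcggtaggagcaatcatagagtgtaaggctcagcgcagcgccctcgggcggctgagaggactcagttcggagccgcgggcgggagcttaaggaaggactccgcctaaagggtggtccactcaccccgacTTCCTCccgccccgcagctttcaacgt
GAGGAA was found in 6 of the 11 windows (1 of 2 for FGR and for BTK, 2 of 3 for SYK, and the single windows of LCP2 and TYROBP), against 23.6% of all 35116 promoter windows of that length. The BLNK and PLCG2 windows held no match to either motif, and other forms of the PU.1 core were not searched for. TYROBP had its nearer match 10 to 5 bases before the start (positions -10 to -5) and BTK at -27 to -22. The NF-kB consensus was found in 1 of the 11 windows, that of BTK at -187 to -178, without overlap with its GAGGAA matches, against 9.96% of all windows. A match is a run of letters and not a measured site. SPI1 itself had signals of 656.1 and 733.3 against 701.4 and 830.5, with overlapping arrays and a log2 difference of -0.13.

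The genes around the chain were described through 6 lists ordered by role, without the 9 members. Together these held 85 measured genes, of which 4 met the size rule as higher (2.44% of all measured genes did) and 0 as lower (1.1%). These 4 include FCGR2B and FCGR2C, whose signals cannot be kept apart, so they may not be separate readings. Of the 85, 61 had a positive difference, with a median of 0.18. Under quantile normalization 58 were positive, with a median of 0.16 against 0.02 for all measured genes, of which 52.7% were positive. Under median scaling 69 were, with 0.30 against 0.17 and 69.0% of all measured genes positive.

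The list of ITAM subunits and receptors coupled to them had 13 measured genes, 10 of them positive, with a median of 0.28. It includes HCST (0.20), a subunit that carries no ITAM itself. FCER1G, an ITAM subunit of Fc receptors, was lower on both hairpin arrays (3598.2 and 3612.8 against 4802.1 and 5016.4), a difference of -0.44. FCGR2C, an activating Fc receptor, was the 1 gene called higher (1466 ± 48.7 against 577.9 ± 23.7, SD, n = 2 arrays a pool, 2.49-fold). Its second measured probe set was 2.01-fold higher. The list of inhibitors had 24 measured genes, 18 of them positive with a median of 0.23, and 2 were called higher. That list also holds the phosphatases PTPRC (0.69) and PTPN11 (-0.25), which can promote this signalling as well. FCGR2B, the inhibitory Fc receptor, was 3.70-fold higher (988.8 ± 45.5 against 255.1 ± 30.8, SD, n = 2 arrays a pool). LILRB2, an inhibitory receptor for class I molecules, was 2.17-fold higher (657 ± 2.97 against 294.6 ± 43.4), and 1.78-fold on its other probe set. FCGR2B and FCGR2C are near-identical over long stretches, and the identifiers of the FCGR2C and LILRB2 probe sets mark probes shared with related transcripts, so the signals of such related genes cannot be kept apart.

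Kinases outside the members gave few values. In the SRC family, FYN and YES1 were measured, at 0.0034 and -0.0076 on the log2 scale, while LCK, BLK, FRK and SRC were not, and in the SYK and TEC families no gene but SYK and BTK was measured. Of the 20 measured scaffold and linker adaptors besides the members, 15 were positive, with a median of 0.17, and 0 met the rule in either direction. DAPP1, an adaptor that binds phosphoinositides after B cell receptor signalling, had the largest positive difference, 0.69 on its brightest probe set. Its other 2 measured probe sets gave 1.07, which met the size rule, and 0.98. PRAM1, an adaptor of myeloid cells, had the largest negative one, -0.49 (1857 ± 178 against 2611 ± 53.2, SD, n = 2 arrays a pool). Of the 26 measured effectors other than PLCG2, 17 were positive, with a median of 0.13. RASGRP4, a RAS activator of myeloid and mast cells, was the 1 called higher, 2.05-fold (358.9 ± 37.1 against 167.2 ± 35.9).

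**Figure D4:**
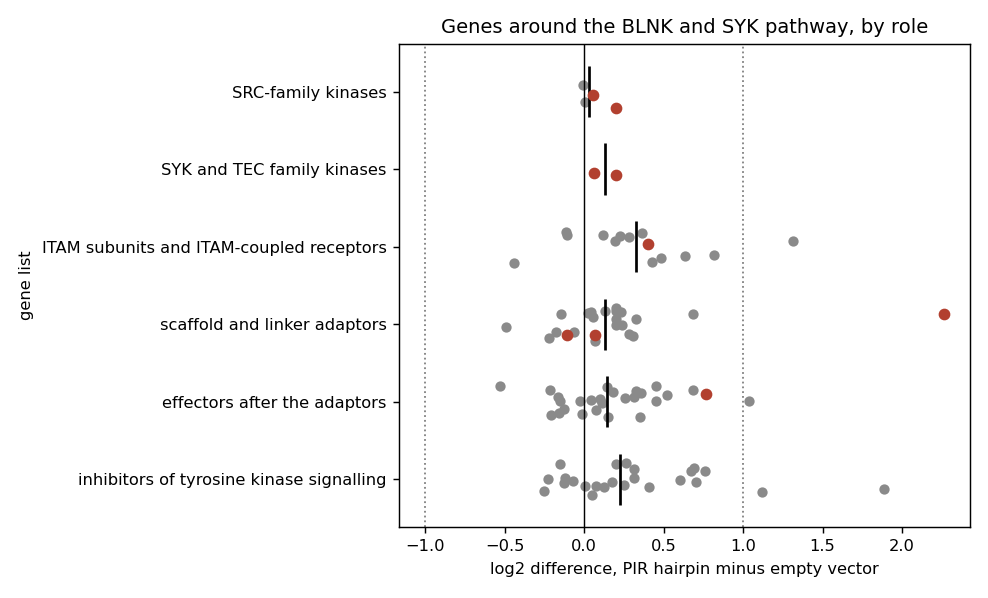
Log2 difference between the pools (hairpin minus empty vector) of each measured gene in 6 lists ordered by role, with the 9 members in red, other genes in grey and a black bar at the list's median over all its measured genes; dotted lines mark the 2-fold limit. BLNK (2.27) and FCGR2B (1.89) lie farthest to the right, and no gene lies beyond the limit on the left.

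The genes whose profile over the 4 arrays was nearest to that of BLNK, by Euclidean distance of log2 values centred on each gene's mean, were FABP6 (0.05), CX3CR1 (0.10), DHRS9 (0.13), FABP4 (0.24) and PDYN (0.35). With 4 arrays of 2 pools, this likeness says only that their differences were of nearly the same size, 4.02-fold to 5.10-fold higher in the hairpin pool. The empty-vector signals of FABP4 (60.4 and 51.8) and PDYN (55.0 and 42.4) lay below the brightness limit, so their folds depend on the pseudocount.

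Because BLNK is known from B cells, markers of other cell types were read beside it. Of 14 B cell markers with a probe set, 5 were measured (CD79A, PAX5, EBF1, CD22 and FCER2) and 0 met the size rule, with a median difference of 0.13. The summed signal of the 14 ran from 2620 to 2871 on the hairpin arrays and from 2284 to 2701 on the empty-vector arrays, which overlap. FCER2, the low-affinity IgE receptor, carried the largest share of it, with 1327.4 and 1449.5 against 1000.8 and 1154.5. MS4A1, the CD20 gene, was among those not measured, with signals of 12.3 and 42.7 against 6.2 and 29.0. Of the 11 monocyte and macrophage markers with a probe set, 8 were measured and CD14, CD163 and MRC1 were not. Their differences were 5 positive and 3 negative, with a median of 0.18. ITGAM, an integrin chain, was the 1 called higher, at 1.90 on the log2 scale. CD4 (0.84), CSF1R (0.69) and FCN1 (0.36) were also higher on both hairpin arrays. S100A8 and S100A9, the calprotectin subunits, were lower on both, at -0.78 and -0.77. The summed signal of the 11 ran from 31871 to 36968 against 32502 to 32847, largely that of LYZ. T cell markers had 1 measured gene of 11, NK cell markers 4 of 8, mast cell and basophil markers 1 of 7 and erythroid and platelet markers 0 of 6, and 0 of these met the size rule. The part of ITGAM or of these lists in the BLNK difference was not tested.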

How the data were processed

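Per the labels' protocols, total RNA was taken up in TRIzol and purified on RNeasy columns. Per the submitters' processing notes, GCOS produced the signals; its version and settings are not given in these sources. Signal intensities, as deposited, are linear, and the authors' scaling gives each array a mean of 500.07 after trimming 2% of probe sets at each end.

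Of 54613 probe sets that are not AFFX controls, 41091 had 1 symbol in the platform annotation, 1801 several and 11721 none; only the first were named, and 41037 matched the RefSeq gene table. Where a gene had several probe sets, the one brightest on average (log2 scale) stood for it. Values were taken as log2(signal + 18), 18 being the mean 25th percentile of signal, so fold changes of dim genes are understated. The arrays of a pool were averaged, and the size rule replaced a test. The number of arrays limits the precision of the hybridisation reading only. It does not bear on the spread between cultures, which is unknown.

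The members, the lists and the size rule were chosen with earlier results of these data known. Named genes are the members, PIR, up to 4 non-members per pathway list and direction that met the rule (otherwise the largest difference each way) and the 5 nearest to BLNK; SPI1 and the markers were named after their values were seen. The calculations were tested on simulated data. Alternatives were other pseudocounts, brightness limits, scalings, fold limits and probe set summaries, no margin, each array left out, and limma (lmFit, eBayes with trend) alone or with a block for the replica number. Python 3.11.15, pandas 2.3.3, numpy 2.4.6, scipy 1.17.1, R 4.3.3 and limma 3.58.1 were used.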

Additional observations from a re-analysis of the deposited data

How the results depend on the processing

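BLNK was the 1 member called higher under every alternative run except the 1.5-fold limit, which called 2 members and 2 member probe sets higher and 1 member probe set lower; 0 members were called lower under any alternative run. The count of genes called higher, 251, was 162 with a pseudocount 4 times larger, 448 without the brightness limit, 142 with a 75th percentile limit, 718 with the 1.5-fold limit and 155 with all probe sets of a gene averaged. The count called lower, 113, was 414, 391 and 68 without the brightness limit, with the 1.5-fold limit and with averaging. With 1 array left out, 180 genes were called lower without empty-vector replicate 1, the most of the 4 arrays, and 138 the fewest. Of the calls in either direction 69.0% were higher, 81.7% under median scaling and 52.0% without the brightness limit. The median of the members was 0.20, 0.32 under median scaling, and 0.17 to 0.21 with 1 array left out, the lowest without hairpin replicate 1. With all probe sets averaged SYK (-0.22) and PLCG2 (-0.09) turned negative and LCP2 (0.03) positive. Averaging measured probe sets alone, an alternative chosen after seeing the data, left SYK at -0.22 but gave PLCG2 0.26 and LCP2 -0.0014. The change of sign in PLCG2 therefore rested on dim probe sets, though the measured ones alone had lowered its difference from 0.76. For LCP2 the measured probe sets alone moved the difference from -0.11 to -0.0014. The dim ones added only the last step to a positive sign. The SYK mean includes 244023_at at -0.84, with hairpin signals of 135.1 and 129.1, little above the limits of 116.4 and 124.5. LCP2 was also positive under median scaling.

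Limma set the pools against hybridisation error, not the conditions. It put 4201 of 10288 genes (40.8%) under an adjusted p of 0.05, among them 4 of 9 members, BLNK, BTK, PLCG2 and TYROBP. With the replica number as a replicate block this was 4119 genes and the same 4 members; in this balanced design the fitted differences, such as 2.27 for BLNK, are the same by construction. The replica numbers name hybridisations and pair nothing in the labels. Dim probe sets, 5 of the 23, carry no reading here, and 1 pool a condition leaves the spread between cultures unknown.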
